A study of Rattus norvegicus with 12 samples.

Results

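The genes described here are 9 parts of the rat response to bacterial lipopolysaccharide (LPS): Lbp and Cd14, which hand LPS on, the receptors Tlr4 and Tlr2, the Tlr4 partner Ly96 (MD-2), the adaptor Myd88, and the brakes Irak3, Nfkbia and Tnfaip3. They were chosen by name, and their probes were found through the RefSeq accession that the array files give for each probe. Of the 9 genes, 8 had a probe named in this way, and all 8 were detected, out of 11146 genes with a detected probe among 14737 named genes. Tnfaip3, which encodes the ubiquitin-editing brake A20, had no probe named through RefSeq here, and no value is given for it. Detection required that the software marked the probe as well above background in every one of the 3 rats of some group. The 8 genes had 10 probes, 2 each for Ly96 and Irak3, and each of the 10 was well above background on all 12 arrays. Where a gene had 2 probes, the most intense one stands for it.

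LPS is carried by the serum protein Lbp to CD14, which passes single LPS molecules to MD-2, and MD-2 holds them in the extracellular part of TLR4. The paired receptors then recruit MyD88, which starts a kinase cascade that frees NF-kB from its inhibitor. The brakes act at successive steps: IRAK-M (Irak3) holds back the kinases at the receptor, IkB-alpha (Nfkbia) returns NF-kB to the cytoplasm, and A20 (Tnfaip3) removes ubiquitin chains that the signal needs. Macrophages and monocytes carry most of these proteins in the lung, and several brakes are themselves NF-kB targets.

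Lung RNA was measured on single-colour Agilent arrays in 12 male Sprague-Dawley rats of 8 to 12 weeks, with 1 array for each rat and 3 rats in each of 4 groups. Control rats had no smoke and no LPS: they breathed air, and saline was given where the others had LPS. All other rats breathed cigarette smoke (CS) up to day 30 and received LPS into the trachea on days 5 and 19, either with no further agent (CS + LPS), or with NaHS, a salt that gives off hydrogen sulfide, or with PPG, a blocker of the hydrogen sulfide-forming enzyme CTH, both injected before the exposures. RNA came from the left upper lobe. Lungs were taken on day 31, so the last LPS lay 12 days back and the last smoke 1 day, and the arrays show the state of the lung after repeated exposure, not the acute response to LPS. No group had smoke without LPS or LPS without smoke, and no unexposed group had NaHS or PPG, so the effects of smoke and of LPS cannot be told apart.

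Values are log2 signals of the scanner software, scaled to the 75th percentile of each array. That percentile lay between 857 (control replicate 3) and 2227 on the scale of the signal. The arrays were on 2 slides: slide 2 held the 3 CS + LPS arrays and control replicate 3, and slide 1 held the other 8, so a difference of a treated group from CS + LPS is also a difference between slides and the 2 cannot be told apart. Control replicate 3 stood apart from the rest, with a Pearson r of 0.936 to 0.957 to the other 11 arrays across detected probes, where the 55 pairs without it gave 0.975 to 0.992, and results that rest on it are given with and without it. Control replicates 1 and 2 lay on slide 1, so with all arrays a difference of CS + LPS from control is already in part one between slides. Leaving out control replicate 3 leaves control arrays on slide 1 only, and that difference then runs wholly between slides. In that setting exposure and slide cannot be told apart for CS + LPS. The lung markers Sftpc, Sftpb and Sftpa1 (surfactant proteins) were well above background on all 12 arrays. Heart muscle markers such as Myh6 and Myl7 were also present, on 9 and 10 of the 12 arrays. In whole lung, fewer cells of a type and less RNA per cell cannot be told apart.

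NF-kB binds a short DNA motif, the kappa-B consensus, and 4 of the 7 genes with a promoter sequence held at least 1 match to it (Tlr2, Irak3, Nfkbia and Tnfaip3). The promoters are those of RefSeq on the GRCr8 build, from 250 bases before to 50 bases after the annotated start, and 7.51% of 33469 rat promoters of that length hold a match. The matches are shown because they set the receptor Tlr2 and the 3 brakes beside the pathway that they feed or restrain. Each line below gives 30 bases on the strand of the gene, 5' to 3', with the matched bases in capitals.
Tlr2, chr2:171504744-171504773, minus strand: caggcccttgGGGGAATTCCCatacggagc
Tlr2, chr2:171504580-171504609, minus strand: ccctggcctgGGGACGTCCCcttcccgcac
Irak3, chr7:57598646-57598675, minus strand: aggtctcgcaGGGGCATCCCtggggagagg
Nfkbia, chr6:78597084-78597113, minus strand: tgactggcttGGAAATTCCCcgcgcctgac
Tnfaip3, chr1:15544130-15544159, minus strand: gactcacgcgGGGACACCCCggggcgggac
Tnfaip3, chr1:15544027-15544056, minus strand: tcacgtgactGGAAAGTCCCtcggaaatcc
Tnfaip3, chr1:15544015-15544044, minus strand: aaagtccctcGGAAATCCCCctgtggcgaa

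Both strands were searched, and the last 2 Tnfaip3 windows overlap. A match describes these letters and does not show that NF-kB binds there. The Tlr4, Cd14 and Myd88 windows held no match. Tlr4 and Cd14 each held the motif GAGGAA on either strand at 2 places, a motif that 27.6% of all promoters hold at least once.

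In the CS + LPS group against control, Ly96 was the only one of the 8 genes to meet the rule for a differentially expressed (DE) gene, a fold change of at least 2 with an unadjusted p under 0.05. The rule called 4.59% of the 21239 detected probes in this comparison. With p-values adjusted by the Benjamini-Hochberg method over all detected probes, 0 of the 8 genes passed 0.05, against 2.04% of probes, while 3 of 8 (Ly96, Cd14 and Tlr2) had an unadjusted p under 0.05, against 25.2% of probes. In all, 7 of the 8 genes had a higher mean in the CS + LPS group and 1, Nfkbia, a lower one. Their median log2 difference was 0.29, and that of all detected probes was -0.04. Without control replicate 3, 0 of the 8 genes met either rule in any exposed group, beside 2.9%, 1.95% and 3.12% of probes by the DE rule and 1.32%, 0.0706% and 2.99% by the adjusted p for CS + LPS, NaHS and PPG.

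**Figure D1:**
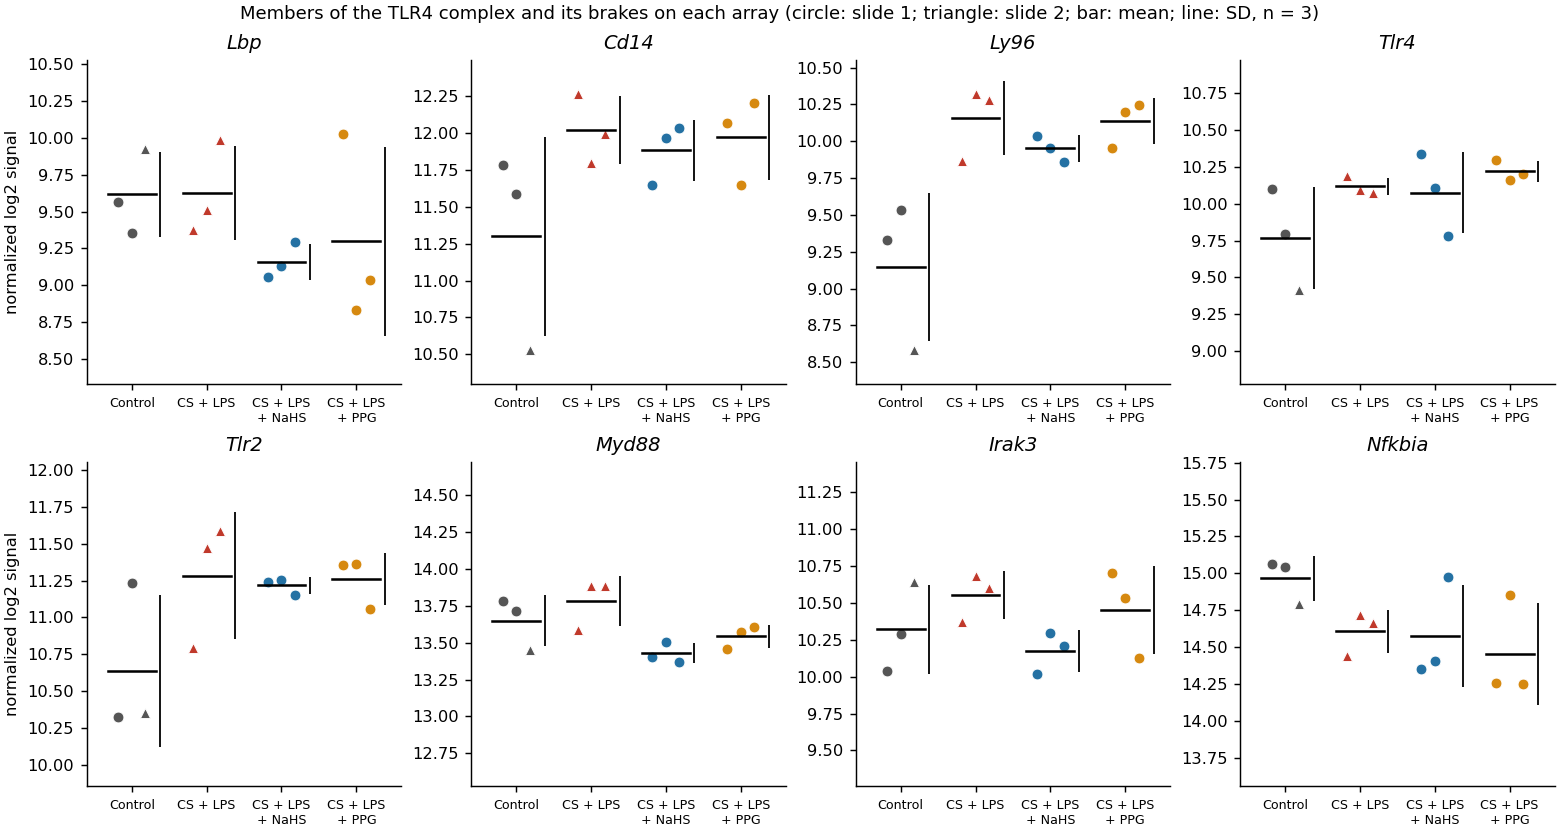
Normalized log2 signal (vertical axis, spanning the same number of log2 units in every panel) of the 8 genes in the 4 groups, 1 point per rat, with circles for slide 1, triangles for slide 2, horizontal bars for means and vertical lines for 1 SD (n = 3). All 9 Ly96 values of the exposed rats, 9.86 to 10.32, lie above the 3 control values, 8.58 to 9.53, and control replicate 3 is the lowest array for Cd14, Ly96 and Tlr4.

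Ly96 encodes MD-2, the protein that holds LPS within the TLR4 complex. Its log2 signals were 9.33, 9.53 and 8.58 in control replicates 1 to 3 and 9.87, 10.32 and 10.28 in the CS + LPS group. They were 10.04, 9.95 and 9.86 in the CS + LPS + NaHS group and 9.96, 10.20 and 10.25 in the CS + LPS + PPG group. All 9 exposed rats thus lay above all 3 control rats, and the 3 exposed groups overlapped one another. The log2 difference from control was 1.01 ± 0.23 (SE; 2.01-fold; limma, adjusted p = 0.0514) for CS + LPS, so that the unadjusted rule called it and the adjusted one did not. The 2 groups did not overlap for 3 of the 8 genes (Ly96, Cd14 and Nfkbia), against 25.2% of probes. With PPG the difference was 0.99 ± 0.23 (1.98-fold; limma, adjusted p = 0.0428), which passed the adjusted threshold but lay just under a fold change of 2. With NaHS it was 0.80 ± 0.23 (1.75-fold; limma, adjusted p = 0.159) and passed neither.

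The size of the Ly96 difference rested in part on control replicate 3, its lowest array. Without that array the log2 differences were 0.73 (adjusted p = 0.0622) for CS + LPS, 0.52 (adjusted p = 0.219) with NaHS and 0.71 (adjusted p = 0.0501) with PPG by limma, and no exposed group met either rule. The CS + LPS difference in that setting also runs between slides. Within slide 1, which leaves 2 control arrays, the values were 0.52 (adjusted p = 0.148) with NaHS and 0.71 (adjusted p = 0.0334) with PPG. Within slide 2 the CS + LPS group lay 1.57 above control replicate 3, the only control array there. With slide as a block in the fit of all arrays, the CS + LPS difference was also 1.57 (limma, adjusted p = 6.466e-04), and it rests on that 1 control array. The direction was upward in every one of these settings.

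**Figure D2:**
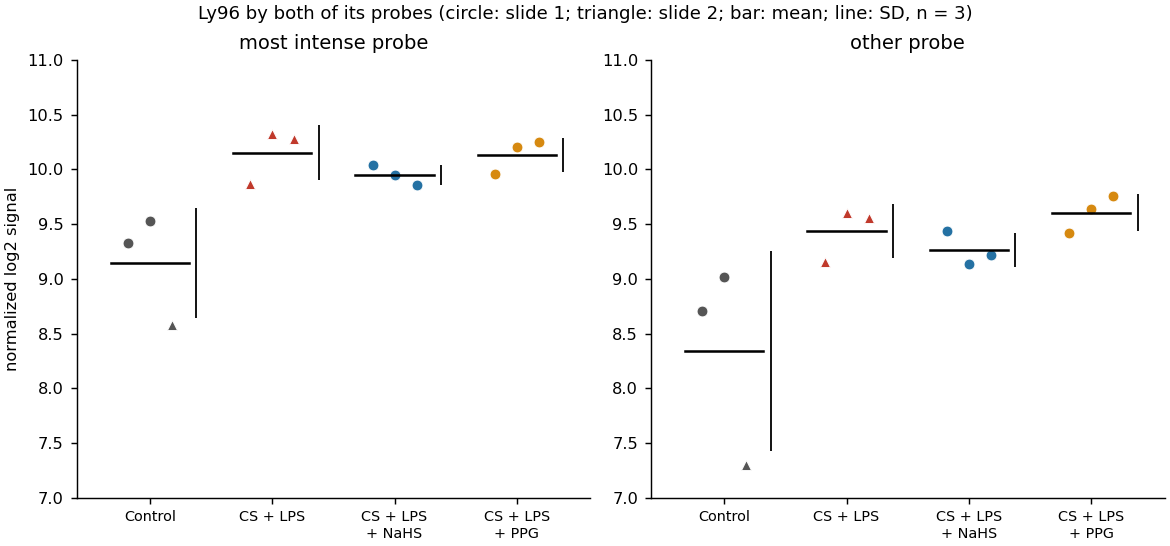
Normalized log2 signal of Ly96 by its 2 probes in the 4 groups, 1 point per rat, with circles for slide 1, triangles for slide 2, bars for means and lines for 1 SD (n = 3). Both probes show the control rats below all exposed rats and control replicate 3 lowest, at 8.58 for the most intense probe and 7.30 for the other.

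On the other Ly96 probe, too, each exposed group lay above control. The signals on the log2 scale were 8.71, 9.02 and 7.30 in control, 9.16, 9.60 and 9.55 with CS + LPS, 9.44, 9.14 and 9.22 with NaHS, and 9.42, 9.64 and 9.76 with PPG, so again no exposed rat reached down to the control range, with 9.14 the lowest exposed value. The log2 differences were 1.09 ± 0.36 (SE; limma, adjusted p = 0.110), 0.92 ± 0.36 (adjusted p = 0.246) and 1.26 ± 0.36 (adjusted p = 0.0638), of which the first and the third met the DE rule. The 2 probes read the same RNA of the same rats and are not separate evidence.

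Cd14 encodes the surface and soluble co-receptor that passes LPS to MD-2. Its log2 signals were 11.78, 11.59 and 10.53 in control, 12.27, 11.80 and 12.00 with CS + LPS, 11.65, 11.97 and 12.04 with NaHS, and 12.07, 11.65 and 12.20 with PPG. The CS + LPS rats all lay above the control rats, by a narrow margin between the nearest pair, while both treated groups overlapped control. The log2 differences were 0.72 ± 0.30 (SE; limma, adjusted p = 0.167), 0.58 ± 0.30 (adjusted p = 0.330) and 0.67 ± 0.30 (adjusted p = 0.161), none of them past a threshold. Control replicate 3 was more than 1 log2 unit below the other control rats, and without it the differences were 0.33, 0.20 and 0.29.

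Tlr4 itself, the signalling receptor, differed less. The control rats had log2 signals of 10.10, 9.79 and 9.41, against 10.19, 10.09 and 10.07 with CS + LPS, 10.34, 10.11 and 9.78 with NaHS, and 10.30, 10.16 and 10.20 with PPG. Only the PPG group lay wholly above control, and control replicate 1 fell within the range of the CS + LPS rats. The differences were 0.35 ± 0.19 (SE; limma, adjusted p = 0.255), 0.31 ± 0.19 (adjusted p = 0.403) and 0.45 ± 0.19 (adjusted p = 0.141), and none passed. The 95% confidence interval of the CS + LPS difference ran from -0.06 to 0.76, so a doubling was outside it. Control replicate 3 was the lowest Tlr4 array, and without it the differences were 0.17, 0.13 and 0.27.

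Tlr2 encodes the receptor for bacterial lipoproteins, which shares MyD88 with TLR4. Log2 signals of Tlr2 were 10.33, 11.23 and 10.35 in control, 10.79, 11.47 and 11.59 with CS + LPS, 11.24, 11.26 and 11.15 with NaHS, and 11.36, 11.36 and 11.06 with PPG. Control replicate 2 lay among the exposed rats, and the other 2 control rats lay below all 9 of them. The differences were 0.65 ± 0.26 (SE; limma, adjusted p = 0.164), 0.58 ± 0.26 (adjusted p = 0.292) and 0.62 ± 0.26 (adjusted p = 0.149), and none passed.

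Lbp, the serum carrier that is made mainly in the liver and also in lung epithelium, differed from control by 0.01 ± 0.29 (SE; limma, adjusted p = 0.988) in the CS + LPS group. On the log2 scale Lbp signals were 9.57, 9.35 and 9.93 in control, 9.38, 9.51 and 9.98 with CS + LPS, 9.05, 9.13 and 9.29 with NaHS, and 10.02, 8.83 and 9.04 with PPG. The 3 NaHS values lay below every value of the control and CS + LPS groups. The difference of the NaHS group from control was -0.46 ± 0.29 (limma, adjusted p = 0.424) and did not pass. PPG replicate 1 was nearly 1 log2 unit above the other PPG rats. Without control replicate 3, the highest control array here, the Lbp differences were 0.16, -0.30 and -0.16.

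Myd88, the adaptor that TLR4 and TLR2 share, had the narrowest spread of the 8 genes in the fit. The log2 signals were 13.78, 13.72 and 13.45 in control, 13.59, 13.88 and 13.89 with CS + LPS, 13.41, 13.50 and 13.37 with NaHS, and 13.45, 13.57 and 13.61 with PPG. No exposed group was separate from control. The log2 differences from control were 0.13 ± 0.13 (SE; limma, adjusted p = 0.527), -0.22 ± 0.13 (adjusted p = 0.404) and -0.11 ± 0.13 (adjusted p = 0.620), and every one of the 95% intervals lay between -0.52 and 0.43. The Myd88 differences without control replicate 3 were 0.04, -0.32 and -0.20.

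Among the brakes, Irak3 encodes IRAK-M, a kinase-like protein that blocks the IRAK kinases and is known for its role in LPS tolerance. Log2 signals of Irak3 were 10.04, 10.29 and 10.64 in control, 10.37, 10.69 and 10.60 with CS + LPS, 10.02, 10.30 and 10.21 with NaHS, and 10.70, 10.54 and 10.12 with PPG. All 3 exposed groups overlapped control. The differences were 0.23 ± 0.19 (SE; limma, adjusted p = 0.449), -0.15 ± 0.19 (adjusted p = 0.706) and 0.13 ± 0.19 (adjusted p = 0.669). The other Irak3 probe gave -0.11, -0.29 and -0.03, so the direction for CS + LPS and for PPG depended on the probe. The Irak3 differences on the most intense probe without control replicate 3 were 0.39, 0.01 and 0.29, so the direction with NaHS turned.

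Nfkbia encodes IkB-alpha, which NF-kB induces and which then restrains NF-kB. Nfkbia log2 signals were 15.06, 15.04 and 14.79 in control, 14.44, 14.71 and 14.66 with CS + LPS, 14.35, 14.41 and 14.97 with NaHS, and 14.25, 14.85 and 14.25 with PPG. The CS + LPS rats lay below all control rats, and NaHS replicate 3 and PPG replicate 2 lay within the control range. The differences were -0.36 ± 0.21 (SE; limma, adjusted p = 0.293), -0.39 ± 0.21 (adjusted p = 0.356) and -0.51 ± 0.21 (adjusted p = 0.140), and none passed. Nfkbia was the only one of the 8 genes with a lower mean than control in CS + LPS, and the immediate early genes, another set of genes with rapid transcription, lay lower as well: 8 of 8 detected had a lower mean in each exposed group. Of these, Jun fell by 0.96 (adjusted p = 0.0404) in CS + LPS and Btg2 fell by 0.76 (adjusted p = 0.0411) with PPG, both by limma, while 0 of the 8 passed with NaHS. The adjusted p called 2.04%, 0.0989% and 4.61% of all probes with CS + LPS, NaHS and PPG. Leaving out control replicate 3, Jun had an adjusted p of 0.0751 and Btg2 one of 0.0662, so that 0 of 8 passed in any group, and all 8 means were still lower than control.

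**Figure D3:**
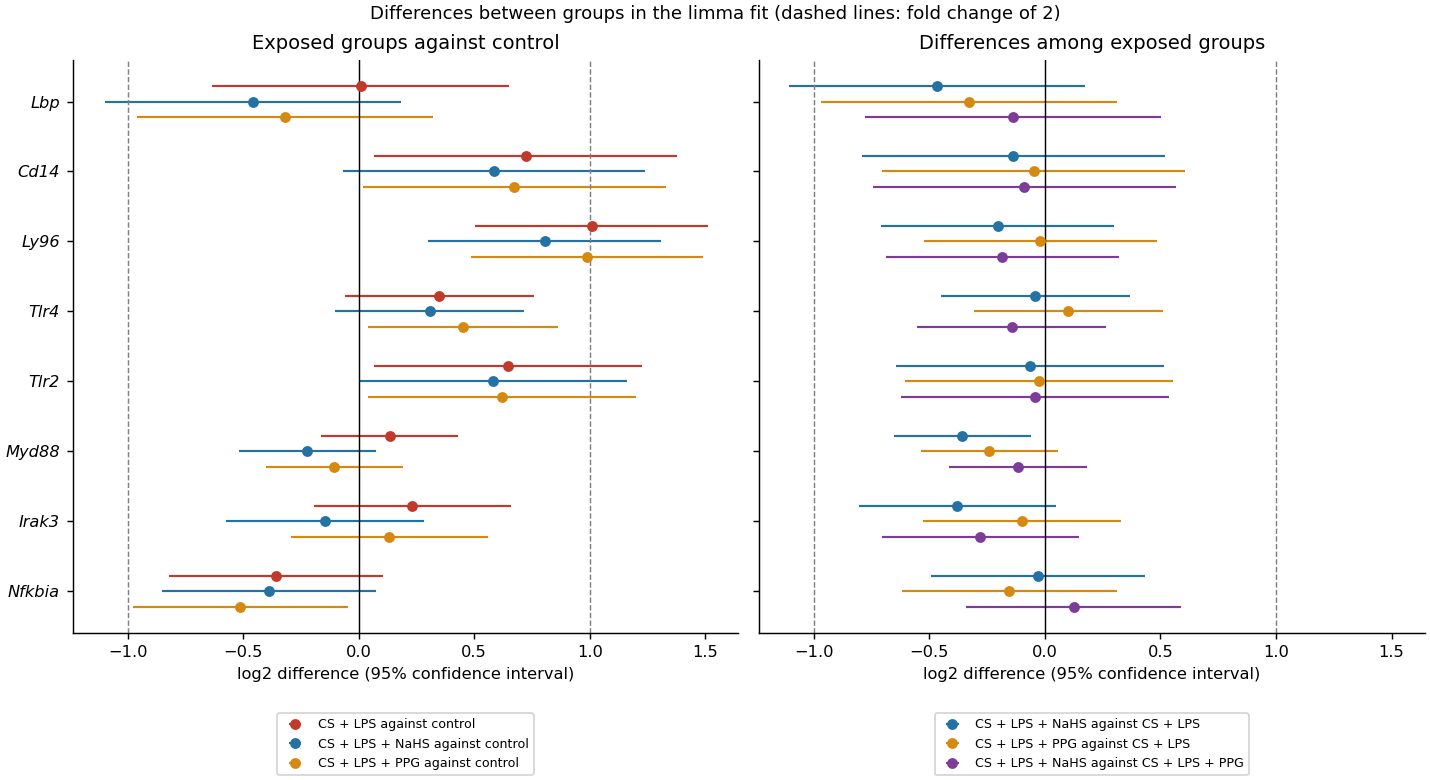
Log2 differences of the 8 genes in the limma fit with 95% confidence intervals (horizontal axis), for the 3 exposed groups against control on the left and for the differences among exposed groups on the right, with dashed lines at a fold change of 2. The Ly96 intervals on the left lie wholly above 0, from a lowest bound of 0.30, and on the right only the Myd88 interval for NaHS against CS + LPS, -0.65 to -0.06, leaves out 0.

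Across the treated groups, 0 of the 8 genes met the DE rule against control, with NaHS against 2.67% of probes and with PPG against 4.38%. By the adjusted p, 0 of 8 passed with NaHS, against 0.0989% of probes, and 1 of 8 (Ly96) with PPG, against 4.61%. At an unadjusted p under 0.05 the counts were 1 of 8 with NaHS (17.1% of probes) and 5 of 8 with PPG (29.3% of probes). The median log2 difference of the 8 genes was 0.08 with NaHS and 0.29 with PPG, beside medians of 0.0046 and -0.0095 over all detected probes. The groups did not overlap for 2 of 8 genes with NaHS (Ly96 and Lbp, 24.8% of probes) and for 2 of 8 with PPG (Ly96 and Tlr4, 33.1% of probes). The 3 comparisons share the control rats.

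NaHS and PPG were compared with CS + LPS to ask whether added or withheld hydrogen sulfide moves the same genes. With NaHS, all 8 genes had a lower mean than in the CS + LPS group, by 0.03 to 0.47 on the log2 scale, and 0 of 8 met the DE rule (1.71% of probes) or the adjusted p (0.598% of probes). The median difference was -0.17 for the 8 genes and -0.0060 for all detected probes. Myd88 gave the smallest p, with a log2 difference of -0.36 ± 0.13 (SE; limma, adjusted p = 0.368): its 3 NaHS values, 13.37 to 13.50, lay below its 3 CS + LPS values, 13.59 to 13.89. Irak3, at -0.38 ± 0.19 (adjusted p = 0.598), and Lbp, at -0.47 ± 0.29 (adjusted p = 0.723), both by limma, had no overlap either. This made 3 of 8 genes without overlap, against 20.5% of probes, and 1 of 8 (Myd88) with an unadjusted p under 0.05, against 9.66%. Each of these differences runs between slides. With slide as a block, a fit in which control replicate 3 alone links the slides, Ly96 differed by -1.05 (adjusted p = 0.0203), Cd14 by -1.30 (adjusted p = 0.0207) and Myd88 by -0.65 (adjusted p = 0.0420), in contrast to -0.20, -0.14 and -0.36 without the block.

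With PPG, 7 of 8 genes had a lower mean than in the CS + LPS group and Tlr4 a higher one, with differences from -0.33 to 0.10. Of the 8, 0 met the DE rule (2.06% of probes) and 0 the adjusted p (0.518% of probes), 0 had an unadjusted p under 0.05 (10.5% of probes), and 0 were without overlap (19.1% of probes). Ly96 differed by -0.02 (95% interval -0.52 to 0.48) and Cd14 by -0.05 (-0.70 to 0.61), intervals that do not show the groups to be alike. With slide as a block the Ly96 difference was -0.87 (adjusted p = 0.0401) and that of Cd14 -1.21 (adjusted p = 0.0271), again resting on control replicate 3. NaHS against PPG, which lies within slide 1, gave 0 of 8 DE genes (0.518% of probes) and 0 of 8 by the adjusted p, where 0 of all 21239 probes passed (1847 had an unadjusted p under 0.05, and 0 passed the adjusted p by the methods' t-test or quantile normalization). None of the 8 genes had an unadjusted p under 0.05 (8.7% of probes). The largest difference there was that of Irak3, -0.28 ± 0.19 (limma, adjusted p = 0.689).

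Around the receptor complex, 6 lists of further pathway genes were counted against control. Of 12 detected genes in the list of other Toll-like receptors and their chaperones, 1 passed the adjusted p with CS + LPS, 0 with NaHS and 5 with PPG, all of them higher, beside 2.04%, 0.0989% and 4.61% of all probes. The median log2 differences were 0.18, 0.55 and 0.64. The gene that passed with CS + LPS was Ly86 (MD-1), the relative of Ly96 that serves the receptor CD180. Its log2 signals were 9.50 to 10.28 in control and 10.88 to 11.37 with CS + LPS, a rise of 1.29 ± 0.23 (SE; limma, adjusted p = 0.0274), and it rose by 1.49 ± 0.23 (adjusted p = 0.0208) with PPG. Cd180 itself rose by 1.72 (adjusted p = 0.0424) and Tlr7, an endosomal receptor for RNA, by 1.48 (adjusted p = 0.0258) with PPG. With NaHS, Ly86 differed by 1.06 and Cd180 by 1.70, with a fold change over 2 and adjusted p of 0.121 and 0.132. The counts by adjusted p without control replicate 3 were 0, 0 and 3 (Ly86, Tlr7 and Tlr11), beside 1.32%, 0.0706% and 2.99% of probes, and the CS + LPS median was 0.45.

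**Figure D4:**
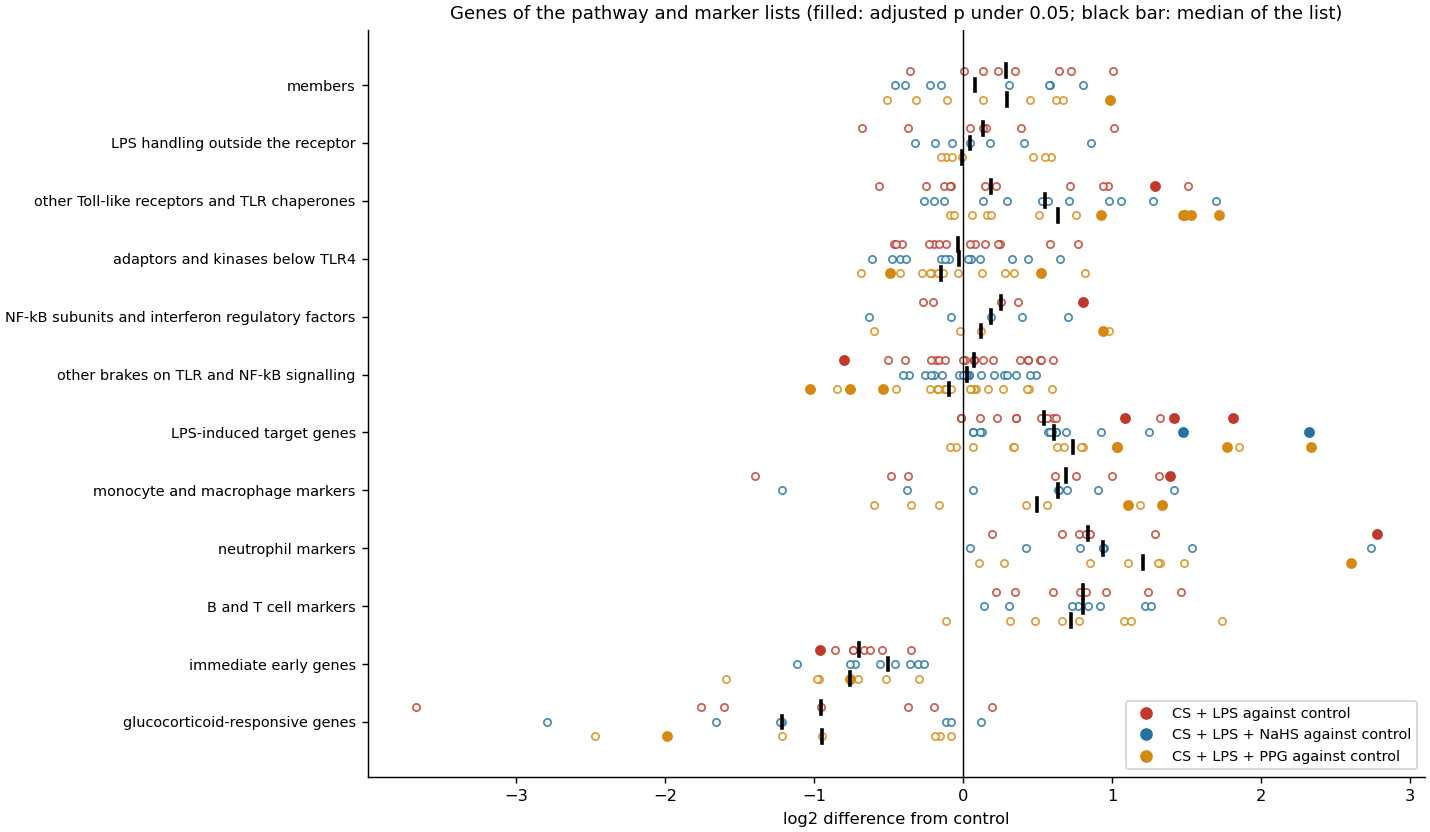
Log2 difference from control (horizontal axis) of each detected gene in the pathway and marker lists, 1 point per gene and exposed group, filled where the adjusted p of limma was under 0.05, with black bars at the median of each list. The medians of LPS-induced target genes are 0.54, 0.61 and 0.74, those of the immediate early genes are -0.70, -0.51 and -0.76, and the adaptors and kinases lie near 0.

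Of 14 detected LPS-induced target genes, 3 passed the adjusted p with CS + LPS, 2 with NaHS and 4 with PPG, all higher, beside 2.04%, 0.0989% and 4.61% of all probes. The other genes of this list did not pass, and 12, 14 and 12 of the 14 had a higher mean than control. Sele, the endothelial adhesion molecule E-selectin, rose by 1.81 (adjusted p = 0.0251), 2.33 (adjusted p = 0.0363) and 2.34 (adjusted p = 0.0156), and its control values, 4.61 to 5.01, lay below all exposed values, 6.01 to 7.52. Lcn2, the siderophore-binding protein of neutrophils and epithelium, rose by 1.41 (adjusted p = 0.0145), 1.48 (adjusted p = 0.0363) and 1.77 (adjusted p = 0.00716). Il1rn, the interleukin 1 receptor antagonist, rose by 1.09 (adjusted p = 0.0378) with CS + LPS and 1.03 (adjusted p = 0.0348) with PPG. The cytokine gene Tnf passed with PPG only, where it rose by 1.03 (limma, adjusted p = 0.0474). Nos2, the inducible nitric oxide synthase, differed by -0.01, 0.06 and -0.05 and passed in none. Ptgs2, the inducible cyclooxygenase, differed by -0.01, 1.25 and -0.09 with an SE of 0.71 and passed in none. Without control replicate 3, Sele and Lcn2 still passed the adjusted p in CS + LPS and in PPG but not in NaHS (0.0628 and 0.0527), and Il1rn and Tnf passed in none. For CS + LPS the differences in that setting also run between slides. Within slide 1, which leaves 2 control arrays, Il1rn passed with PPG (limma, adjusted p = 0.0285) and Tnf did not (0.0967).

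Below the receptor, genes were again counted by the adjusted p, which called 2.04%, 0.0989% and 4.61% of all probes with CS + LPS, NaHS and PPG. Of 14 detected adaptors and kinases, 0 passed the adjusted p with CS + LPS and with NaHS, and with PPG Ube2n, the ubiquitin-conjugating enzyme that works with TRAF6, rose by 0.53 (adjusted p = 0.0434) while the kinase Irak2 fell by 0.49 (adjusted p = 0.0466). Of 5 detected NF-kB subunits and interferon regulatory factors, Irf5, a factor that MyD88 activates in macrophages, rose by 0.80 (adjusted p = 0.0468) with CS + LPS and 0.94 (adjusted p = 0.0266) with PPG. Among 20 detected further brakes, 1 passed with CS + LPS, 0 with NaHS and 3 with PPG, all lower, beside 2.04%, 0.0989% and 4.61% of all probes. As a list the brakes went both ways: 12, 12 and 9 of the 20 had a higher mean than control, with medians of 0.08, 0.02 and -0.10. Otud7b, a deubiquitinase that restrains NF-kB, fell by 0.80 (adjusted p = 0.0304) with CS + LPS and by 0.76 (adjusted p = 0.0291) with PPG. Rnf216, a ubiquitin ligase that targets Toll-like receptors, fell by 0.54 (adjusted p = 0.0407), and Zfp36, which destabilizes cytokine mRNA, fell by 1.03 (adjusted p = 0.0485), both with PPG. Without control replicate 3, Otud7b in both groups and Irf5 with PPG still passed, and the other calls of this paragraph did not. The kinase Ikbke, which differed by 0.23 (adjusted p = 0.695) with CS + LPS, passed only without that array (0.81, adjusted p = 0.0163). For Ikbke and Otud7b alike, the CS + LPS difference without that array is also a difference between slides, and the 2 cannot be told apart. Of 7 detected genes for LPS handling outside the receptor, Itgb2, the shared chain of the leukocyte integrins, met the DE rule with CS + LPS (1.02, adjusted p = 0.109). The rule called 4.59% of probes there, and Itgb2 differed by 0.61 without control replicate 3.

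Markers of the cells that carry the LPS receptor differed among themselves. Of 8 detected monocyte and macrophage markers, 1 (Cd68), 0 and 2 (Cd68 and Fcgr1a) passed the adjusted p with CS + LPS, NaHS and PPG, beside 2.04%, 0.0989% and 4.61% of all probes. A higher mean than control was found for 5, 6 and 5, with median log2 differences of 0.69, 0.64 and 0.49. By the DE rule 3, 1 and 3 were higher and 1, 0 and 0 lower, beside 4.59%, 2.67% and 4.38% of probes. The lowest differences in the list were -1.40, -1.22 and -0.60. The medians without control replicate 3 were 0.16, 0.11 and -0.02, the last with 4 markers higher and 4 lower, beside Ly96 differences of 0.73, 0.52 and 0.71. The macrophage protein Cd68 rose by 1.39 (adjusted p = 0.0304) with CS + LPS and by 1.33 (adjusted p = 0.0280) with PPG, and differed by 1.42 (adjusted p = 0.0900) with NaHS. Leaving out control replicate 3, Cd68 still passed with CS + LPS (adjusted p = 0.0460), a difference that then also runs between slides, and with PPG (adjusted p = 0.0403). The summed signal of the 8 markers was 174791 to 319145 in control rats. The corresponding ranges were 159022 to 189139 in the CS + LPS group, 168609 to 191286 in the NaHS group and 165730 to 211054 in the PPG group, so the sum, which the brightest markers set, was not higher. The defining markers Cd68, Adgre1 and Csf1r were well above background on all 12 arrays, and Marco was on 1.

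All 8 detected neutrophil markers had a higher mean in each exposed group, with medians of 0.84, 0.94 and 1.21, and their summed signal was 7968 to 19301 in control rats, against 16251 to 33636 in the CS + LPS group, 16556 to 33539 in the NaHS group and 25444 to 35931 in the PPG group. By adjusted p, 1, 0 and 1 of them passed (Fcnb), beside 2.04%, 0.0989% and 4.61% of all probes. None passed when control replicate 3 alone was left out, while within slide 1 Fcnb passed with PPG (limma, adjusted p = 0.0448). S100a8, S100a9 and Csf3r were well above background on all 12 arrays, while Elane was on 1. Of 8 detected B and T cell markers, 8, 8 and 7 had a higher mean, with medians of 0.81, 0.80 and 0.72, and 0 passed the adjusted p. Cd3e, Cd3g and Cd4 were well above background on all 12 arrays. The medians without control replicate 3 with CS + LPS, NaHS and PPG were 0.47, 0.53 and 0.92 for neutrophils and 0.24, 0.20 and 0.38 for B and T cells. The part of cell numbers in the Ly96 difference was not tested.

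Of 5 detected endothelium markers, 4, 3 and 3 had a lower mean than control, with medians of -0.37, -0.28 and -0.32. By adjusted p, 1, 0 and 1 of the 5 passed, beside 2.04%, 0.0989% and 4.61% of all probes. The receptor Tek fell by 0.78 (adjusted p = 0.0395) with CS + LPS, and the junction protein Pecam1 fell by 0.82 (adjusted p = 0.0230) with PPG. Both still passed without control replicate 3 (adjusted p = 0.0386 and 0.0275), though the Tek difference then also runs between slides. Cdh5 passed the adjusted p in no group, but with NaHS it met the DE rule upward, by 1.08, where the rule called 2.67% of probes. Its mean log2 signals were 10.14 in control and 9.77, 11.22 and 10.18 in the CS + LPS, NaHS and PPG groups. The blood markers Hba-a1, Hbb and Alas2, the heart marker Actc1 and the fat marker Cidec were well above background on all 12 arrays, the fat marker Adipoq on 6, and the liver markers Ttr, Apoa1 and Alb on 11, 5 and 3, while the fat marker Plin1 had no probe named here. Other marker lists varied between rats or groups as well. The summed signal of 9 heart and skeletal muscle markers ran from 6639 to 99587 in control and from 44436 to 76425 with PPG, and that of 5 fat markers from 615 to 9144 in control and from 2230 to 5404 with PPG. By adjusted p, 0, 0 and 1 (Fabp3) of the 9 muscle markers passed, beside 2.04%, 0.0989% and 4.61% of probes, and 0 of the fat markers. Control replicate 3 had the highest control signals of Myh6, 14.77, and Adipoq, 11.60. Without that array, Fabp3 and Myh6 passed with PPG (limma, adjusted p = 0.0250 and 0.0483). Adipoq, Car3, Fabp4 and Thrsp did too (0.0107 to 0.0418), all higher, beside 2.99% of probes. The part of such tissue in the Ly96 difference was not tested. Of 7 detected glucocorticoid-responsive genes, 6, 6 and 7 had a lower mean than control, with medians of -0.95, -1.22 and -0.95, and Pdk4 fell by 1.99 (limma, adjusted p = 0.0341) with PPG. The adjusted p called 0, 0 and 1 of the 7, beside 2.04%, 0.0989% and 4.61% of all probes. By the DE rule 3, 4 and 3 of the 7 were lower and 0 higher, beside 4.59%, 2.67% and 4.38% of probes. Leaving out control replicate 3, the Pdk4 difference with PPG was -1.67 (adjusted p = 0.0602), and 0 of the 7 passed the adjusted p. In that setting 3 of the 7 were still lower by the DE rule with CS + LPS, beside 2.9% of probes, though this then also runs between slides. Within slide 1, Pdk4 passed with PPG (limma, adjusted p = 0.0249). Glucocorticoids are known to restrain the LPS response, and the part of these differences in the results above was not tested.

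The genes whose pattern over the 12 arrays was most like that of Ly96 were sought among 11145 other genes, by the root mean square difference of gene-centred log2 values. They were Prdx5, a peroxiredoxin, at 0.093, Parvg, an actin-linked adhesion protein of blood cells, at 0.107, and Ten1, a telomere-capping protein, at 0.108, where the SD of Ly96 itself was 0.477. Without control replicate 3 the nearest was Igsf6, an immunoglobulin-type receptor, at 0.0841, Prdx5 ranked 2 and Lgals3 ranked 3, at 0.101. Ten1 ranked 8 and Parvg ranked 12, and the SD of Ly96 was 0.298.

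**Figure D5:**
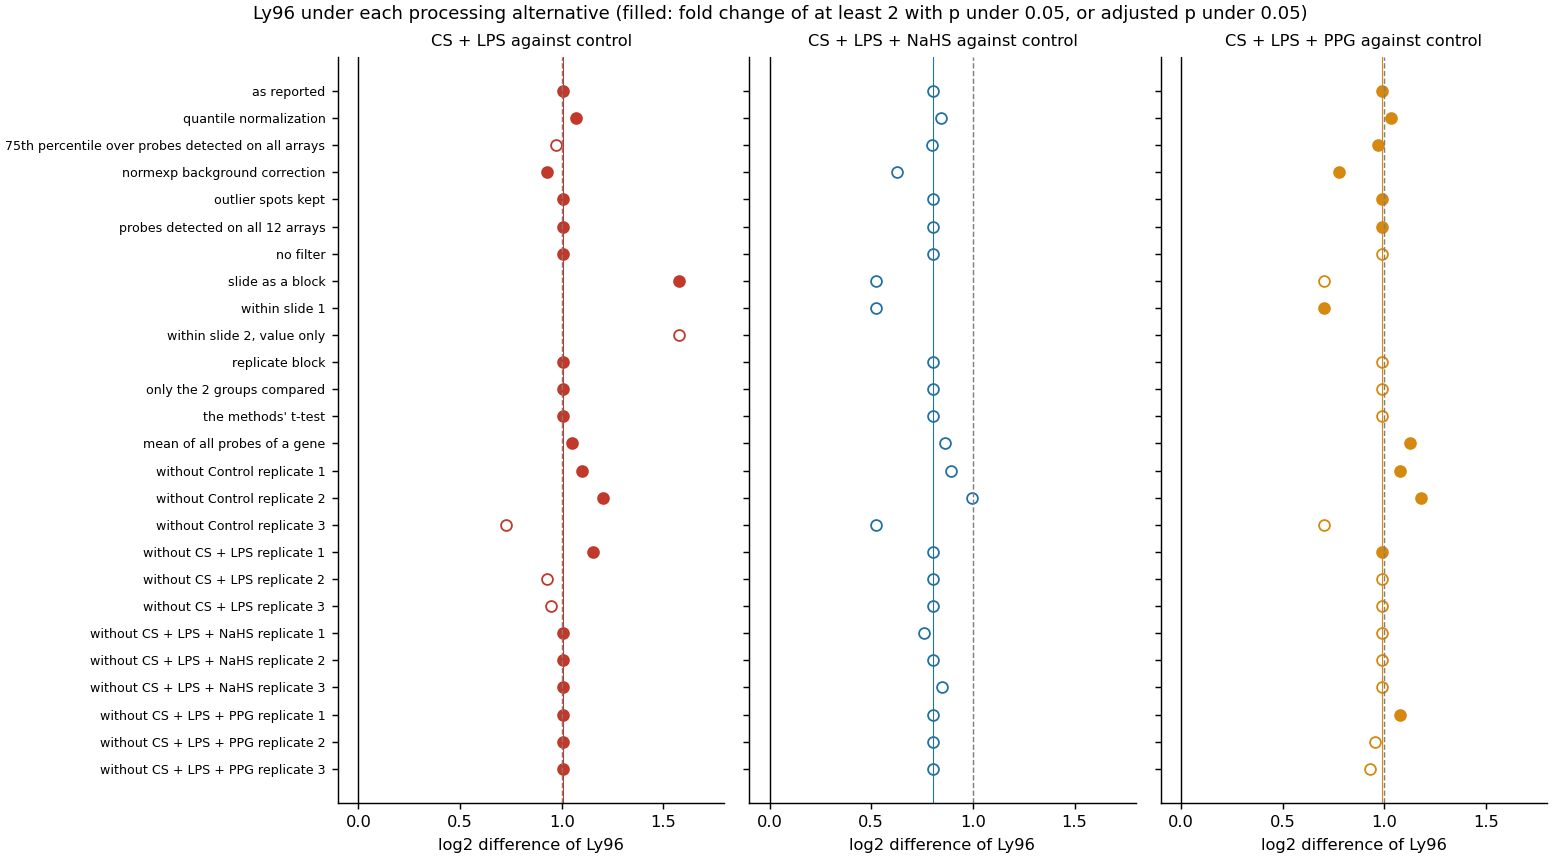
Log2 difference of Ly96 from control (horizontal axis) in each exposed group as reported and under each processing alternative (vertical axis), filled where a fold change of at least 2 with p under 0.05 or an adjusted p under 0.05 was met, with a dashed line at a fold change of 2. All values lie above 0, between 0.52 and 1.57, and the lowest belong to the settings without control replicate 3 or within slide 1.

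Over 24 alternatives for each comparison, the Ly96 difference from control ran from 0.73 to 1.57 with CS + LPS, from 0.52 to 1.00 with NaHS and from 0.71 to 1.18 with PPG. It met one of the rules in 19 of the 24 for CS + LPS, in 0 for NaHS and in 11 for PPG. The CS + LPS alternative within slide 2 had no test, so it could not meet a rule. Leaving out an array of a group not compared cannot change the difference itself, only its p.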

How the data were processed

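Lung RNA of 12 rats was hybridized to 12 single-colour arrays. The authors deposited, for each array, the processed signal, a linear intensity from which the scanner software had taken the background, made with Agilent Feature Extraction 10.7 per the submitters' processing notes; no depth applies, and the number of arrays limits the precision. Scanner flags (other columns) were used for detection and outliers. The 5 further deposited files, the authors' lists of DE probes with their fold changes and p-values, were not used. For 3 arrays (control replicates 1 and 2 and NaHS replicate 1) the deposited signals have 3 significant digits.

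Signals were log2 transformed and scaled by subtracting the array's own 75th percentile, with the mean of the 12 percentiles added back. Spots marked as outliers were dropped, and repeat spots of a probe averaged. Symbols came from the RefSeq accession through a GRCr8 gene table, which matched 17514 of 30367 probes. The linear model of limma 3.58.1 (R 4.3.3, data.table version 1.17.8) was fitted to 21239 detected probes with all 12 arrays in the model, which gave 6 comparisons, with two-sided moderated tests and Benjamini-Hochberg adjustment. Fits were tested on simulated data. Figures used matplotlib 3.10.9. The arrays of a group are of different rats. Control replicate 3 and slide are treated as limits in the text.

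The members and gene lists were chosen with earlier results of these data known. Named were the 9 genes, from each pathway list the genes with an adjusted p under 0.05, at most the 3 of smallest p for each comparison (where a list had none, the 2 DE genes of smallest p), the first 3 genes of each marker list, and the 3 patterns nearest to each called member. Nos2, Ptgs2, Tnf, Marco, Elane, Igsf6, Lgals3, Ikbke, Tlr11, Fcgr1a, Fcnb, Fabp3, Car3, Fabp4 and Thrsp were named after their values were seen. Replicate numbers did not pair the samples. Alternatives were other scalings, normexp background correction (offset 50, on the median signal because these files hold no mean signal), outlier spots kept, 2 other filters, slide or replicate block, single slides, fits restricted to a pair of groups, the methods' t-test, the mean of all probes of a gene, and each array left out. List counts without control replicate 3 were added after seeing the data.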

Additional observations from a re-analysis of the deposited data

How the results depend on the processing

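Of 1136 values of the 8 genes over 25 alternatives, 42 changed sign, 0 of them past a threshold, 17 lost a call and 9 gained one. Counts moved as follows. DE genes in CS + LPS against control, 1 as reported, were 0 with the percentile taken over probes detected on all arrays or with normexp, 2 with slide as a block (Cd14 and Ly96), and 0 to 1 leaving out single arrays (0 without control replicate 3 or CS + LPS replicate 2 or 3). DE genes with PPG against control, 0 as reported, were 1 under quantile normalization or the mean of all probes and 0 to 1 leaving out single arrays (1 without control replicate 1 or 2 or PPG replicate 1). By adjusted p, CS + LPS against control, 0 as reported, gave 1 with normexp, 1 with probes detected on all 12 arrays, 3 with slide as a block and 0 to 2 leaving out single arrays (2, Tlr2 and Ly96, without control replicate 2). PPG against control, 1 as reported, gave 0 with no filter, slide as a block, a fit restricted to both groups compared, the methods' t-test or the mean of all probes, and 0 to 2 leaving out single arrays. With slide as a block, 2 genes were DE and 3 passed the adjusted p for NaHS against CS + LPS, and 1 and 2 for PPG against CS + LPS. In that fit the CS + LPS values rest on control replicate 3 alone. The cause of the other changes was not tested, apart from filters that alter the number of probes tested.

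Replicate numbers did not pair the rats: of 18 same-numbered pairs, 2 correlated above 0.1 (-0.31 to 0.14). With the replicate number as a block, Ly96 with PPG had an adjusted p of 0.0760 and the count fell from 1 to 0. Over all probes, normexp shifted the median CS + LPS difference from -0.04 to -0.14, and the share of DE probes that were higher went from 36.0% to 61.4% under quantile normalization. With NaHS against control it went from 48.6% to 26.6% under normexp, and against CS + LPS it went from 87.6% to 74.4% with NaHS and from 87.0% to 74.8% with PPG under quantile normalization. The number of probes by adjusted p went from 433 to 79 in CS + LPS and from 979 to 32 in PPG against control with the replicate block, and to 1 and 0 by the methods' t-test. With 3 arrays a group, the SE of 0.30 for Cd14 shows how coarse a difference these arrays resolve.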
